A study of Mus musculus with 12 samples.

Results

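Histone demethylases, SET-domain methyltransferases, SWI/SNF and ISWI remodelling subunits, CHD remodellers, histone deacetylases and ARID proteins were followed in early thymic progenitors (ETPs), the first T-lineage cells of the thymus. The genes were taken by symbol, as every row of the deposited table beginning with Kdm, Setd, Smarc, Chd, Hdac or Arid in the form these families use, which gave 68 of 13016 genes. They fell into 15 Kdm, 11 Setd, 13 Smarc, 9 Chd, 11 Hdac and 9 Arid genes. Kdm4d, Kdm5d, Smarca1, Chd5 and Arid3c were not analysed here.

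RNA was read in 12 libraries of 100 sorted C57BL/6 cells, 4 libraries in each of 3 groups. The dKO_Flt3ITD cells carried floxed Ezh2 and Runx1 alleles on both chromosomes, the recombinase Rag1Cre and Flt3 ITD on 1 allele, an internal tandem duplication that activates this cytokine receptor. The dKO cells carried the floxed alleles and Rag1Cre without the Flt3 mutation. The control cells carried the floxed alleles without Rag1Cre, so floxed Ezh2 and Runx1 were common to all 3 groups. Rag1Cre is active only in cells that have switched on Rag1, and each library pooled its 100 cells. The question was what loss of the Polycomb methyltransferase Ezh2 and of the transcription factor Runx1, alone and with the Flt3 mutation, does to the RNA of these progenitors. Nothing in the labels says that replicates came from separate mice, so a p-value here stands for scatter among libraries and no more.

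Chromatin is opened and closed by enzymes that write and remove histone marks and by ATP-driven machines that slide or evict nucleosomes. Polycomb writes methyl groups on lysine 27 of histone H3 (H3K27) and so keeps genes silent. SWI/SNF complexes counter it, Kdm6 demethylases remove its mark, and Hdac1 and Hdac2 with Chd3 and Chd4 form the NuRD repressor. Several of these genes, Arid1a, Smarca4, Setd2 and Kdm6a among them, are recurrently mutated in human leukaemias and other cancers.

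**Figure D1:**
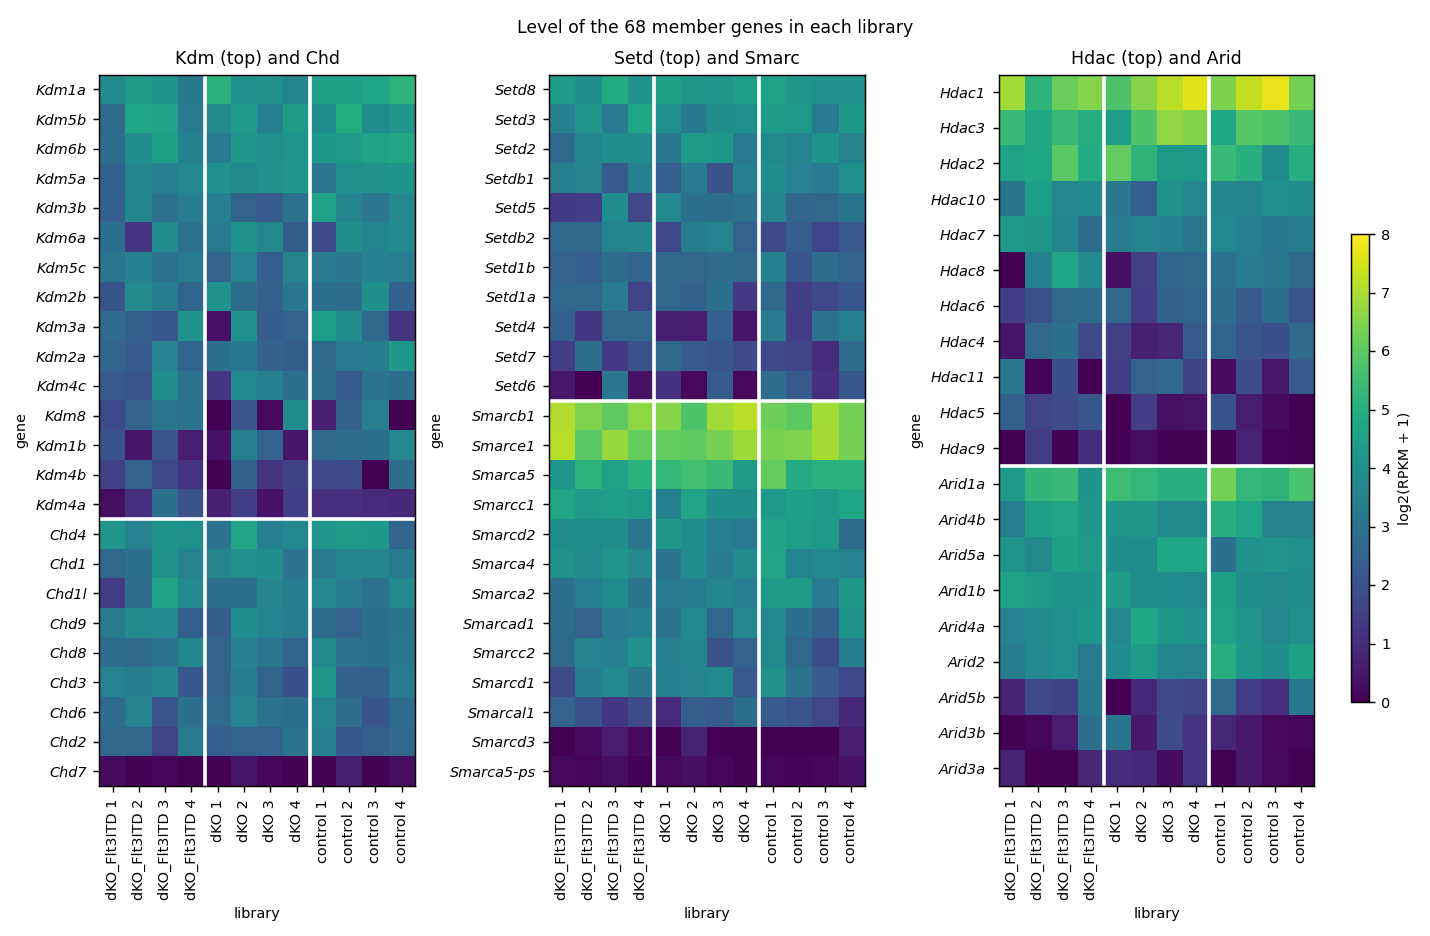
Level of the 68 genes in each of the 12 libraries as log2(RPKM + 1), with genes down the page by family and libraries across it. Hdac1, Smarcb1 and Smarce1 form the bright rows in all 3 groups, with means of 111, 93.4 and 89.3 RPKM, and Chd7, Smarcd3, Smarca5-ps, Hdac9 and Arid3a the dark ones.

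The members were mostly of moderate level. RPKM, reads scaled to transcript length and library size, can be compared between genes because of the first scaling. Of the 68 genes, 63 reached 1 RPKM in at least 4 libraries and were tested among 10690 genes. Their median of the mean RPKM was 8.88, against 10.2 over all tested genes. The 5 genes below the limit were Arid3a at a mean of 0.473, Hdac9 at 0.319, Smarcd3 at 0.1799, Chd7 at 0.134 and the pseudogene Smarca5-ps at 0.128 RPKM. Smarca5-ps resembles Smarca5 closely, so reads of the pair may have been split between them.

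Setdb1 and Setdb2, a pair of H3K9 methyltransferases, gave the only ratio among the related pairs read here that lay apart from control in both mutant groups. Their promoters are shown for that reason. The windows run from 250 bases before to 50 bases after the RefSeq start site on GRCm38.p6, 5′ to 3′ on the minus strand, with CG dinucleotides in capitals. The Setdb1 window is chr3:95357153-95357452 and the Setdb2 window chr14:59440831-59441130.
Setdb1: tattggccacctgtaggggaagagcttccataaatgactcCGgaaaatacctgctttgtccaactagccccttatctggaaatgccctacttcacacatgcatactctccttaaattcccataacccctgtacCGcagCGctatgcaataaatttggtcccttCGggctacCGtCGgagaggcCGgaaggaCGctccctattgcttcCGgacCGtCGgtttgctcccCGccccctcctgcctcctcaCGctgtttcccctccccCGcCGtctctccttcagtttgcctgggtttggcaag
Setdb2: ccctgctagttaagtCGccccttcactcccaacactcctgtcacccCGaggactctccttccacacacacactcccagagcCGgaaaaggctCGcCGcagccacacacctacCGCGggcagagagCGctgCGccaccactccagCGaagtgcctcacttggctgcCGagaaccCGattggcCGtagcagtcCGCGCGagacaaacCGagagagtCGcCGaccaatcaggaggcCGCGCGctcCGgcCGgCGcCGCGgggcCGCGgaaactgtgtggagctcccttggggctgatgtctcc
The Setdb1 window held 15 CG dinucleotides and the Setdb2 window 29, against a median of 22 over the 50 members with a RefSeq promoter entry and 21 over 8609 tested genes. The RUNX core motif TGTGGT, searched on both strands, was in neither window. It stood in 7 of the 50 member promoters (14%), against 12.7% of the tested genes' promoters and 16.9% of all 27025 entries. A match or its absence describes these letters alone.

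No member of any family passed the test in any of the 3 comparisons. In dKO against control 0 of 63 members were called by limma at an adjusted p under 0.05, where 1.02% of the 10690 tested genes were, 0.786% higher and 0.234% lower in dKO. In dKO_Flt3ITD against control 0 of 63 were called, where 1.5% of all tested genes were, 0.992% higher and 0.505% lower in dKO_Flt3ITD. In dKO_Flt3ITD against dKO the count was 0 of 63, and 0% of all tested genes were called. The members' counts are thus near the background shares. At an unadjusted p under 0.05 there was 1 member in dKO against control (Setd4), against 9.18% of all tested genes. There was 1 in dKO_Flt3ITD against dKO (Hdac5), against 7.71%, and 4 in dKO_Flt3ITD against control (Kdm1b, Hdac5, Arid1a and Setdb2), against 13.4%. By limma-voom on whole reads recovered from the RPKM values, 0 members were called in each comparison, and 4, 3 and 8 had an unadjusted p under 0.05 in dKO against control, dKO_Flt3ITD against dKO and dKO_Flt3ITD against control.

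The sizes of the differences were also modest. A log2 difference of 1 or more was found for 7 of 63 members in dKO against control (11.1%, against 14.0% of all tested genes). It was found for 5 in dKO_Flt3ITD against dKO (7.94%, against 11.6%) and for 4 in dKO_Flt3ITD against control (6.35%, against 17.5%). The 95% interval lay wholly within 1 log2 unit of no difference for 9, 4 and 7 members in the same order of comparisons, and Setd8, Smarcb1 and Smarce1 were among these in all 3. For the remaining members a difference of 1 log2 unit or more lies within the interval, so the missing calls do not show equal levels. In simulated data of this design, dKO against control over 10690 genes, the test found 7.23% of the genes given a change of 1 log2 unit, 52.7% of those given 2 and 75.8% of those given 3. The simulated scatter was normal and independent, and only genes with a control level above about 5 RPKM were given changes. These rates do not cover members below that level, such as Hdac5 and Arid3b.

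**Figure D2:**
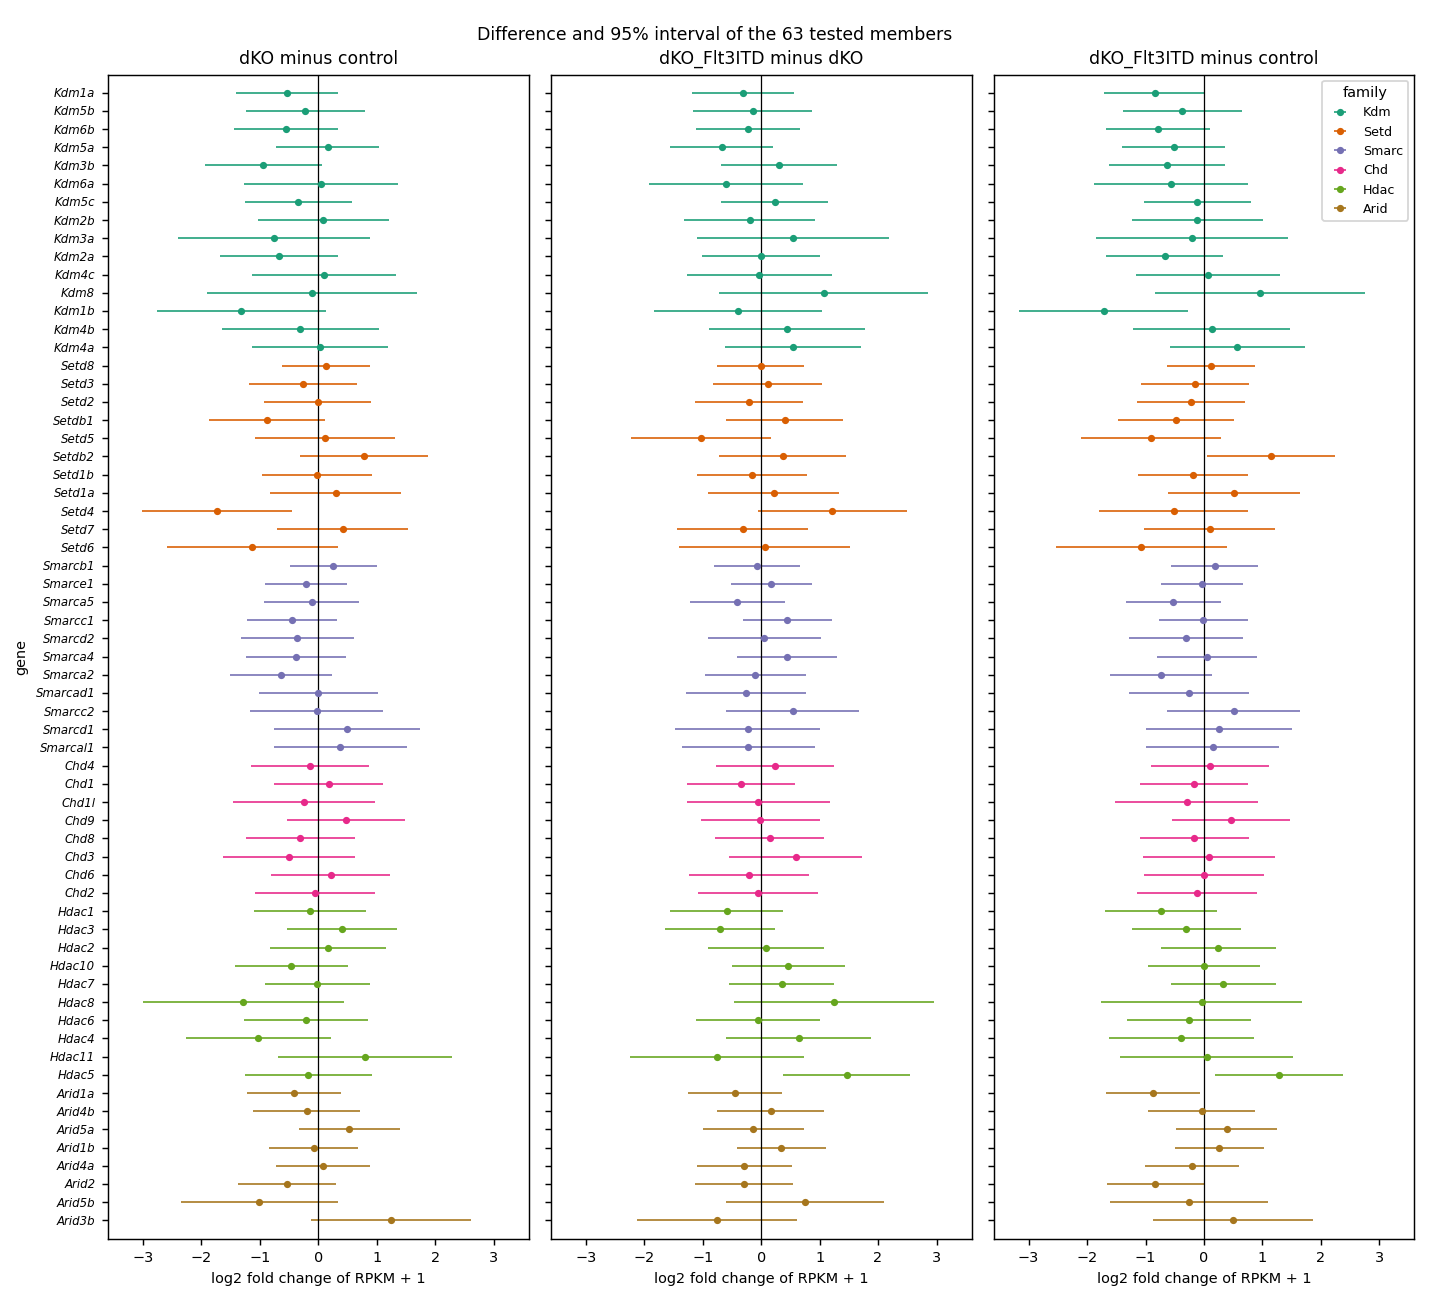
Log2 fold change of RPKM + 1 of the 63 tested members (points) with 95% intervals (lines), for dKO minus control, dKO_Flt3ITD minus dKO and dKO_Flt3ITD minus control, coloured by family. Most intervals cross 0, and those of Setd4 in the left panel, Hdac5 in the middle and right and Kdm1b, Setdb2 and Arid1a in the right do not; no member passed the adjusted threshold.

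The targeted genes were read first. Ezh2 stood at 16.4 ± 5.59 RPKM in dKO_Flt3ITD, 22.6 ± 5.87 in dKO and 39.8 ± 5.83 in control (SD, n = 4 each), with all mutant libraries below all control libraries and an exact two-sided permutation p of 0.0286 for each mutant group, the smallest that 4 against 4 allows. By limma over all tested genes Ezh2 was not called, with a log2 difference of -1.26 (SE 0.35, adjusted p = 0.0949) in dKO_Flt3ITD and -0.81 (SE 0.35, adjusted p = 0.47005) in dKO, each against control. Runx1 stood at 47.5 ± 11.8 RPKM in dKO_Flt3ITD, 46.4 ± 11.1 in dKO and 21.2 ± 4.57 in control (SD, n = 4 each), with all mutant libraries above all control libraries. With libraries rescaled to the same sum the groups no longer lay wholly apart. The exact permutation p for Runx1 was then 0.0857 in dKO_Flt3ITD and 0.0571 in dKO, while that for Ezh2 stayed at 0.0286 in both. By limma Runx1 was not called either, with an adjusted p of 0.124 in dKO_Flt3ITD and 0.184 in dKO, each against control. Reads over the whole gene, which include parts outside the deletion, do not check that allele, and the directions given here rest on the labels. The whole reads behind the table totalled 13623436 to 33985972 per library. Of 11 progenitor markers, Ptprc, at 56.8 to 199.8 RPKM, and Kit, at 38.2 to 78.8 RPKM, were present in all 12 libraries. In each mutant group against control 7 of the 11 had negative differences and 4 positive ones, and Tcf7 was called lower in both. The presence of 2 markers does not settle which cells a library held.

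The Kdm genes encode lysine demethylases, and all 15 were tested. Their median log2 difference was -0.31 in dKO against control with 10 of 15 negative, -0.03 in dKO_Flt3ITD against dKO with 9 negative, and -0.37 in dKO_Flt3ITD against control with 11 negative. The same median over all tested genes was 0.0096, 0.0042 and 0.0021, and 49.3%, 49.7% and 49.9% of them had negative differences, in the same order. Without replicate 1 of all 3 groups the Kdm medians were -0.27 in dKO against control, 0.10 in dKO_Flt3ITD against dKO and -0.12 in dKO_Flt3ITD against control.

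Of the Kdm genes, 5 remove methyl groups from H3K4, a mark of active promoters and enhancers, and all of them had negative differences in dKO_Flt3ITD against control, with a median of -0.52 and 0 calls. Those 5 differences were negative in all 25 settings tried, which draw on the same 12 libraries and are not independent. Kdm5b came to -0.0046 in its weakest setting. Rescaling libraries to the same sum moved the median of all tested genes to -0.22 in this comparison, so a negative sign there carries little weight. Kdm1b (LSD2, chromosome 13, 47043373 to 47085279, GRCm38.p6) showed the largest of them. It had 3.02, 0.387, 3.35 and 0.5205 RPKM in dKO_Flt3ITD 1 to 4, 0.312, 10.02, 4.66 and 0.355 in dKO 1 to 4 and 5.38, 5.98, 6.45 and 11.9 in control 1 to 4. All dKO_Flt3ITD libraries were below all control libraries, as were 3 of 4 dKO libraries, with dKO 2 within the control range. The log2 difference was -1.71 (SE 0.68, 95% interval -3.16 to -0.27, adjusted p = 0.269) in dKO_Flt3ITD against control and -1.32 (SE 0.68, 95% interval -2.76 to 0.12, adjusted p = 0.625) in dKO against control.

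Kdm1a (LSD1, chromosome 4, 136550533 to 136602787), the flavin-dependent H3K4 demethylase of the CoREST complex, had the highest mean of the family, 19.96 RPKM. It had 13.6, 19.5, 16.5 and 8.46 RPKM in dKO_Flt3ITD, 33.5, 15.2, 15.96 and 11.4 in dKO and 22.02, 21.8, 25.6 and 36.05 in control. Every dKO_Flt3ITD library was below every control library, and dKO 1 alone among dKO libraries reached the control range. The log2 difference of dKO_Flt3ITD from control was -0.85 (SE 0.41, 95% interval -1.71 to 0.02, adjusted p = 0.388). Kdm1a and Kdm1b were 2 of the 3 members whose dKO_Flt3ITD and control libraries did not overlap, both lower, where 3.51% of all tested genes did so downward and 4.16% upward.

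Kdm5a (chromosome 6, 120364099 to 120444574), Kdm5b and Kdm5c remove trimethyl marks from H3K4. Kdm5a had 4.58, 11.8, 9.94 and 12.2 RPKM in dKO_Flt3ITD, 15.4, 12.8, 15.6 and 17.01 in dKO and 7.89, 15.3, 15.96 and 16.6 in control. All dKO_Flt3ITD libraries were below all dKO libraries, which 2.2% of tested genes did downward, while control 1 at 7.89 RPKM lay inside the dKO_Flt3ITD range. The log2 difference of dKO_Flt3ITD from dKO was -0.68 (SE 0.42, 95% interval -1.56 to 0.21, adjusted p = 0.762). Kdm5b ranged over 5.76 to 24.98 RPKM in dKO_Flt3ITD, 10.1 to 20.1 in dKO and 13.5 to 30.1 in control, and the 3 ranges overlapped.

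Kdm6a (UTX) and Kdm6b (JMJD3) take off the H3K27 mark that Ezh2 writes. Kdm6b (chromosome 11, 69398508 to 69420367) had 6.11, 14.3, 22.4 and 10.4 RPKM in dKO_Flt3ITD, 9.13, 16.98, 15.1 and 17.2 in dKO and 18.2, 18.7, 23.4 and 26.3 in control. It was the only member whose dKO libraries all lay below all control libraries, which 2.38% of tested genes did, no member lay wholly above control, which 3.93% did, and dKO_Flt3ITD 3 alone among dKO_Flt3ITD libraries reached the control range. The log2 difference was -0.56 (SE 0.42, 95% interval -1.45 to 0.33, adjusted p = 0.816) in dKO and -0.78 (SE 0.42, 95% interval -1.67 to 0.11, adjusted p = 0.441) in dKO_Flt3ITD, each against control. Kdm6a ranged over 1.33 to 13.6 RPKM in dKO_Flt3ITD, 4.12 to 15.8 in dKO and 2.63 to 14.6 in control, with its 2 lowest values in dKO_Flt3ITD 2 and control 1. Its level was below that of Kdm6b in 11 of 12 libraries, dKO_Flt3ITD 1 being the exception.

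The remaining Kdm genes were grouped here as demethylases of H3K9 and H3K36, a grouping by listed role that these data do not check. Kdm3b, an H3K9 demethylase, was highest in control 1 at 23.1 RPKM and had a log2 difference of -0.94 (SE 0.47, 95% interval -1.94 to 0.05, adjusted p = 0.60002) in dKO against control. Kdm8 (JMJD5) was the most variable tested member, with a within-group SD of 1.44 log2 units, and was listed at 0 in dKO 1 and in control 4. Kdm2a and Kdm2b, which bind unmethylated CG islands, averaged 7.61 and 8.15 RPKM, and Kdm4a, Kdm4b and Kdm4c averaged 1.64, 2.48 and 6.897. Kdm3a, a second H3K9 demethylase, ranged from 0.304 RPKM in dKO 1 up to 20.8 in control 1. None of these 8 genes passed the test in any comparison.

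The Setd genes encode SET-domain methyltransferases, and all 11 were tested. Their median log2 difference was -0.01 in dKO against control, 0.06 in dKO_Flt3ITD against dKO and -0.18 in dKO_Flt3ITD against control. It was 0.18 in dKO against control, 0.17 in dKO_Flt3ITD against dKO and 0.09 in dKO_Flt3ITD against control once replicate 1 of each group was left out. Setd4 and Setdb2 had the smallest p-values of the family, in opposite directions.

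Setd4 (chromosome 16, 93583457 to 93604791), a SET-domain protein studied in quiescent stem cells, had 4.55, 1.44, 5.55 and 5.31 RPKM in dKO_Flt3ITD, 0.591, 0.576, 4.52 and 0.382 in dKO and 8.77, 1.68, 7.14 and 9.98 in control. Of the dKO libraries, 3 stood below 1 RPKM and dKO 3 stood apart from them, inside the control range, whose lowest value was control 2. The log2 difference of dKO from control was -1.73 (SE 0.61, 95% interval -3.01 to -0.46, adjusted p = 0.285), the smallest unadjusted p of any member in that comparison. It ranged from -2.71 to -1.21 over the 25 settings, and its smallest adjusted p was 0.140, without control replicate 2. The dKO_Flt3ITD libraries differed from dKO by 1.22 (SE 0.61, 95% interval -0.06 to 2.49, adjusted p = 0.673).

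Setdb1 (chromosome 3, 95323525 to 95357202) writes the trimethyl H3K9 mark that silences endogenous retroviruses, and Setdb2 (chromosome 14, 59402009 to 59440880) is a related enzyme. Setdb2 had 5.47, 5.39, 11.2 and 11.8 RPKM in dKO_Flt3ITD, 2.33, 9.22, 11.1 and 4.73 in dKO and 2.61, 4.27, 2.02 and 3.697 in control. Every dKO_Flt3ITD library was above every control library, and 3 of 4 dKO libraries were too. Its log2 difference was 1.15 (SE 0.52, 95% interval 0.06 to 2.23, adjusted p = 0.343) in dKO_Flt3ITD and 0.78 (SE 0.52, 95% interval -0.31 to 1.87, adjusted p = 0.756) in dKO, each against control. Setdb1 had 9.86, 10.9, 4.08 and 10.2 RPKM in dKO_Flt3ITD, 4.28, 8.85, 3.25 and 9.91 in dKO and 14.1, 10.7, 8.85 and 15.001 in control, with overlapping groups. Its log2 difference was -0.48 (SE 0.47, 95% interval -1.48 to 0.51, adjusted p = 0.716) in dKO_Flt3ITD and -0.88 (SE 0.47, 95% interval -1.88 to 0.11, adjusted p = 0.648) in dKO, each against control.

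Among the other Setd genes, Setd8, the RefSeq gene Kmt5a that monomethylates histone H4 on lysine 20, was the highest at a mean of 19.1 RPKM and 1 of the steadiest members. It averaged 19.98 ± 6.56 RPKM in dKO_Flt3ITD, 19.6 ± 2.55 in dKO and 17.9 ± 3.499 in control (SD, n = 4 each), and its log2 difference from control was 0.12 (SE 0.36, 95% interval -0.63 to 0.87, adjusted p = 0.931) in dKO_Flt3ITD. Setd2, the H3K36 trimethylase, ranged over 5.88 to 14.2 RPKM in dKO_Flt3ITD, 7.88 to 19.6 in dKO and 10.9 to 16.7 in control. Setd1a and Setd1b, catalytic subunits of H3K4 methylating COMPASS complexes, averaged 4.42 and 5.66 RPKM over all libraries. Setd5 had 1.59, 1.72, 13.8 and 2.26 RPKM in dKO_Flt3ITD, against 12.3, 6.56, 6.204 and 7.004 in dKO, with dKO_Flt3ITD 3 far above the other dKO_Flt3ITD libraries and a log2 difference of -1.02 (SE 0.57, 95% interval -2.22 to 0.17, adjusted p = 0.7096). Setd3, a histidine methyltransferase of actin, Setd6 and Setd7 averaged 15.04, 2.41 and 3.38 RPKM.

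The Smarc genes encode subunits of SWI/SNF, the ISWI ATPase Smarca5 and a few other helicases. This family held 11 tested genes, and none had a log2 difference of 1 or more in any comparison. The family median was -0.12 in dKO against control, -0.07 in dKO_Flt3ITD against dKO and -0.01 in dKO_Flt3ITD against control. Leaving out replicate 1 of all groups, it was 0.07 in dKO against control, -0.01 in dKO_Flt3ITD against dKO and -0.05 in dKO_Flt3ITD against control. The smallest adjusted p of the family was 0.459, for Smarca2 in dKO_Flt3ITD against control.

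Smarcb1 and Smarce1, shared subunits of SWI/SNF, were by far the highest of the family. Smarcb1 had means of 94.9 ± 28.6 RPKM in dKO_Flt3ITD, 102 ± 37.97 in dKO and 83.04 ± 23.7 in control, and Smarce1 of 94.2 ± 36.8 RPKM in dKO_Flt3ITD, 80.8 ± 22.96 in dKO and 92.9 ± 19.2 in control (SD, n = 4 each). Their log2 differences were 0.25 (SE 0.35, 95% interval -0.49 to 1.00, adjusted p = 0.933) and -0.22 (SE 0.33, 95% interval -0.92 to 0.48, adjusted p = 0.939) in dKO against control, and the groups overlapped. The intervals of both genes lay within 1 log2 unit of no difference in all 3 comparisons, that of Smarcb1 in dKO against control only just.

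SWI/SNF carries either Smarca4 (BRG1) or Smarca2 (BRM) as its motor. Smarca4 had 15.7, 12.8, 17.2 and 12.6 RPKM in dKO_Flt3ITD, 7.23, 13.5, 9.18 and 12.9 in dKO and 24.7, 11.2, 12.3 and 10.7 in control, with control 1 apart from the other control libraries. Smarca2 had 6.64, 9.95, 13.7 and 7.52 RPKM in dKO_Flt3ITD, 8.81, 9.23, 11.8 and 9.77 in dKO and 19.6, 19.8, 8.97 and 18.01 in control. Of the control libraries, 3 had more Smarca2 than any mutant library and control 3 fell within the mutant range. The log2 difference of Smarca2 was -0.74 (SE 0.41, 95% interval -1.61 to 0.13, adjusted p = 0.459) in dKO_Flt3ITD and -0.64 (SE 0.41, 95% interval -1.51 to 0.23, adjusted p = 0.746) in dKO, each against control. Smarca4 exceeded Smarca2 in all 4 dKO_Flt3ITD libraries, in 2 dKO libraries and in 2 control libraries.

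Smarcc1 and Smarcc2 are paired scaffold subunits, and Smarcc1 was the more abundant in 12 of 12 libraries. Smarcc1 averaged 21.2 ± 3.297 RPKM in dKO_Flt3ITD, 15.9 ± 6.16 in dKO and 21.3 ± 2.91 in control (SD, n = 4 each), with a within-group SD of 0.32 log2 units, among the smallest of the 63 members. Smarcd1, Smarcd2 and Smarcd3 are alternative subunits, and of these Smarcd2 averaged 14.2 and Smarcd1 8.41 RPKM, while Smarcd3, known from muscle and heart, was at or below 0.723 RPKM in all libraries. Smarca5 (SNF2H) ranged over 17.6 to 34.8 RPKM in dKO_Flt3ITD, 20.6 to 46.4 in dKO and 28.8 to 65.8 in control. Smarcad1 averaged 8.88 RPKM and Smarcal1, an annealing helicase of stalled replication forks, 3.16.

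The Chd genes encode chromodomain helicases, motors that slide nucleosomes, and 8 of 9 were tested. No Chd gene had an unadjusted p under 0.05, a log2 difference of 1 or more or non-overlapping groups in any comparison. The family median was -0.10 in dKO against control, -0.03 in dKO_Flt3ITD against dKO and -0.06 in dKO_Flt3ITD against control. Without replicate 1 of all groups it was 0.16 in dKO against control, -0.10 in dKO_Flt3ITD against dKO and 0.22 in dKO_Flt3ITD against control. Chd4, the main motor of NuRD in lymphocytes, had 16.9, 10.7, 16.8 and 15.03 RPKM in dKO_Flt3ITD, 7.32, 24.2, 9.94 and 12.2 in dKO and 17.01, 20.1, 18.2 and 5.15 in control, and the groups overlapped. Its relative Chd3 ranged over 3.59 to 11.8 RPKM in dKO_Flt3ITD, 2.91 to 9.51 in dKO and 4.42 to 18.02 in control. Chd1, which binds H3K4 trimethyl marks, averaged 10.7 RPKM, and Chd1l, a remodeller switched on by poly(ADP-ribose), 9.9999. Chd1l ran from 1.62 RPKM in dKO_Flt3ITD 1 up to 23.5 in dKO_Flt3ITD 3. The largest difference among these genes was that of Chd3 in dKO_Flt3ITD against dKO, 0.59 (SE 0.54, 95% interval -0.54 to 1.72, adjusted p = 0.849). Chd2, Chd6, Chd8 and Chd9 averaged 5.49, 6.99, 7.86 and 8.48 RPKM.

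The Hdac genes encode histone deacetylases, which remove acetyl groups and mostly favour silencing. Of the 11 genes 10 were tested, and their median log2 difference was -0.16 in dKO against control, 0.22 in dKO_Flt3ITD against dKO and -0.02 in dKO_Flt3ITD against control. With replicate 1 left out of all groups, it was 0.01 in dKO against control, 0.47 in dKO_Flt3ITD against dKO and 0.20 in dKO_Flt3ITD against control. The class I enzymes Hdac1, Hdac2 and Hdac3 had the highest means of the family. Hdac1, the highest of all 68 members, had 118, 35.8, 71.3 and 90.7 RPKM in dKO_Flt3ITD, 53.8, 92.96, 143 and 200.3 in dKO and 84.2, 152, 216 and 78.5 in control, with a log2 difference of -0.74 (SE 0.46, 95% interval -1.70 to 0.23, adjusted p = 0.5197) in dKO_Flt3ITD against control. Hdac2, its partner in NuRD, SIN3 and CoREST, had 23.5, 26.5, 60.4 and 29.5 RPKM in dKO_Flt3ITD, 66.5, 35.8, 19.6 and 18.7 in dKO and 41.4, 32.2, 13.5 and 30.4 in control. Hdac1 was above Hdac2 in 11 of 12 libraries, with dKO 1 the exception. Hdac3, the enzyme of NCoR complexes, averaged 35.3 ± 8.02 RPKM in dKO_Flt3ITD, 66.5 ± 35.9 in dKO and 44.8 ± 14.6 in control (SD, n = 4 each). Its log2 difference of dKO_Flt3ITD from dKO was -0.71 (SE 0.44, 95% interval -1.64 to 0.23, adjusted p = 0.763). Leaving out replicate 1 of all groups gave Hdac3 an adjusted p of 0.323 there, the smallest of any member in this comparison over all settings.

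Class IIa enzymes shuttle between nucleus and cytoplasm and bind MEF2 factors. Hdac5 (chromosome 11, 102195747 to 102230172) had 4.42, 2.15, 2.62 and 3.37 RPKM in dKO_Flt3ITD, 0, 1.75, 0.2799 and 0.339 in dKO and 3.04, 0.542, 0.201 and 0.00912 in control. It was listed at 0 in dKO 1. All dKO_Flt3ITD libraries were above all dKO libraries, which 2.08% of tested genes were, and above all control libraries but control 1. Hdac5 reached 1 RPKM in 6 libraries, which were those of dKO_Flt3ITD, dKO 2 and control 1. It thus met the limit for testing only through dKO_Flt3ITD, where it is high. Its separation, the share beside it and its p-values depend on that entry and carry no independent weight. The log2 difference was 1.46 (SE 0.52, 95% interval 0.37 to 2.55, adjusted p = 0.5003) in dKO_Flt3ITD against dKO and 1.29 (SE 0.52, 95% interval 0.20 to 2.38, adjusted p = 0.276) in dKO_Flt3ITD against control. Without control 1, the second reached its smallest adjusted p over all settings, 0.120, and remained above the threshold. With voom the 2 differences were 4.09 and 3.596, in the same order. Under a filter of at least 5 RPKM in 4 libraries Hdac5 was not tested, its levels being low.

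Hdac4 had 0.372, 5.58, 6.78 and 2.39 RPKM in dKO_Flt3ITD, 1.88, 0.632, 0.799 and 3.77 in dKO and 5.08, 3.36, 2.87 and 5.77 in control, with a log2 difference of -1.03 (SE 0.59, 95% interval -2.26 to 0.21, adjusted p = 0.689) in dKO against control and overlapping groups. Hdac7, which thymocytes express strongly, averaged 13.7 ± 5.998 RPKM in dKO_Flt3ITD, 9.72 ± 1.43 in dKO and 9.88 ± 1.66 in control (SD, n = 4 each), with overlapping groups. Hdac9 reached 1 RPKM only in dKO_Flt3ITD 2 and dKO_Flt3ITD 4. Of the other classes, Hdac6, a tubulin deacetylase, Hdac10, a polyamine deacetylase, and Hdac11 averaged 4.39, 12.3 and 2.66 RPKM.

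Hdac8, Hdac6, Kdm6a and Kdm5c are on the X chromosome. Hdac8 had 0.0213, 10.5, 25.9 and 13.4 RPKM in dKO_Flt3ITD, 0.243, 1.87, 5.08 and 5.64 in dKO and 6.99, 9.34, 8.25 and 5.603 in control, and its lowest values were in dKO_Flt3ITD 1 and dKO 1. The Y-linked gene Ddx3y stood at 32.5 RPKM in dKO 1 and 52.3 in dKO_Flt3ITD 2 and at or below 0.0865 in the other libraries. Xist, the RNA of the inactive X, stood at 0.130 and 0.0988 RPKM in the same libraries and at 6.85 or more elsewhere. Kdm6a, at 1.33 RPKM in dKO_Flt3ITD 2, was low in 1 of these libraries, but at 8.84 in dKO 1. The part of sex in these levels was not tested.

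The Arid genes share a DNA-binding domain, and 8 of 9 were tested. Their median log2 difference was -0.14 in dKO against control, -0.21 in dKO_Flt3ITD against dKO and -0.12 in dKO_Flt3ITD against control. Without replicate 1 of all groups it was -0.04 in dKO against control, -0.08 in dKO_Flt3ITD against dKO and 0.20 in dKO_Flt3ITD against control. Arid1a, Arid1b and Arid2 are the subunits that set the type of SWI/SNF complex. Arid1a (chromosome 4, 133679008 to 133756769), of the canonical BAF complex, had 18.7, 37.6, 40.7 and 16.5 RPKM in dKO_Flt3ITD, 44.6, 38.6, 32.04 and 31.03 in dKO and 78.97, 38.5, 35.7 and 51.6 in control. The dKO_Flt3ITD libraries fell in a low pair, 1 and 4, and a pair within the dKO and control ranges, and control 1 was the highest library. The log2 difference of dKO_Flt3ITD from control was -0.87 (SE 0.38, 95% interval -1.67 to -0.06, adjusted p = 0.3304). Without replicate 1 of all groups it was -0.48, a shift larger than that standard error.

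Arid1b, which takes the place of Arid1a in a share of BAF complexes, was the least variable tested member, with a within-group SD of 0.28 log2 units and means of 18.98 ± 2.95 RPKM in dKO_Flt3ITD, 14.9 ± 3.45 in dKO and 15.8 ± 4.04 in control (SD, n = 4 each). Its log2 difference of dKO_Flt3ITD from control was 0.27 (SE 0.36, 95% interval -0.50 to 1.03, adjusted p = 0.812). Arid2 (chromosome 15, 96287522 to 96405463), of the PBAF complex, had 9.24, 12.3, 15.2 and 8.93 RPKM in dKO_Flt3ITD, 13.9, 20.6, 11.7 and 10.95 in dKO and 31.7, 17.7, 14.3 and 22.4 in control. Of the dKO_Flt3ITD libraries 3 were below all control libraries and the highest, dKO_Flt3ITD 3, lay just above control 3. The log2 difference of dKO_Flt3ITD from control was -0.83 (SE 0.40, 95% interval -1.66 to 0.0048, adjusted p = 0.374).

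Among the other Arid genes, Arid4a and Arid4b, SIN3-associated proteins, averaged 16.4 and 17.7 RPKM, and Arid5a, an RNA-binding protein that stabilises Il6 messenger RNA, 17.03. Arid5b, a partner of the demethylase Phf2, had 0.735, 2.44, 1.96 and 8.32 RPKM in dKO_Flt3ITD, 0, 0.891, 2.44 and 2.14 in dKO and 5.33, 1.61, 1.16 and 8.34 in control, with a log2 difference of -1.01 (SE 0.64, 95% interval -2.35 to 0.34, adjusted p = 0.739) in dKO against control. Arid3b reached 7.58 RPKM in dKO 1 and 6.46 in dKO_Flt3ITD 4 and stood between 0.1096 and 0.798 in control. Its log2 difference was 1.25 (SE 0.65, 95% interval -0.13 to 2.62, adjusted p = 0.629) in dKO against control, the largest positive one of any member in that comparison. Arid3b reached 1 RPKM in 4 libraries only, dKO 1, dKO 3, dKO 4 and dKO_Flt3ITD 4. It thus met the limit for testing through mutant libraries alone, which favours a positive difference from control, so this rank carries no weight.

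**Figure D3:**
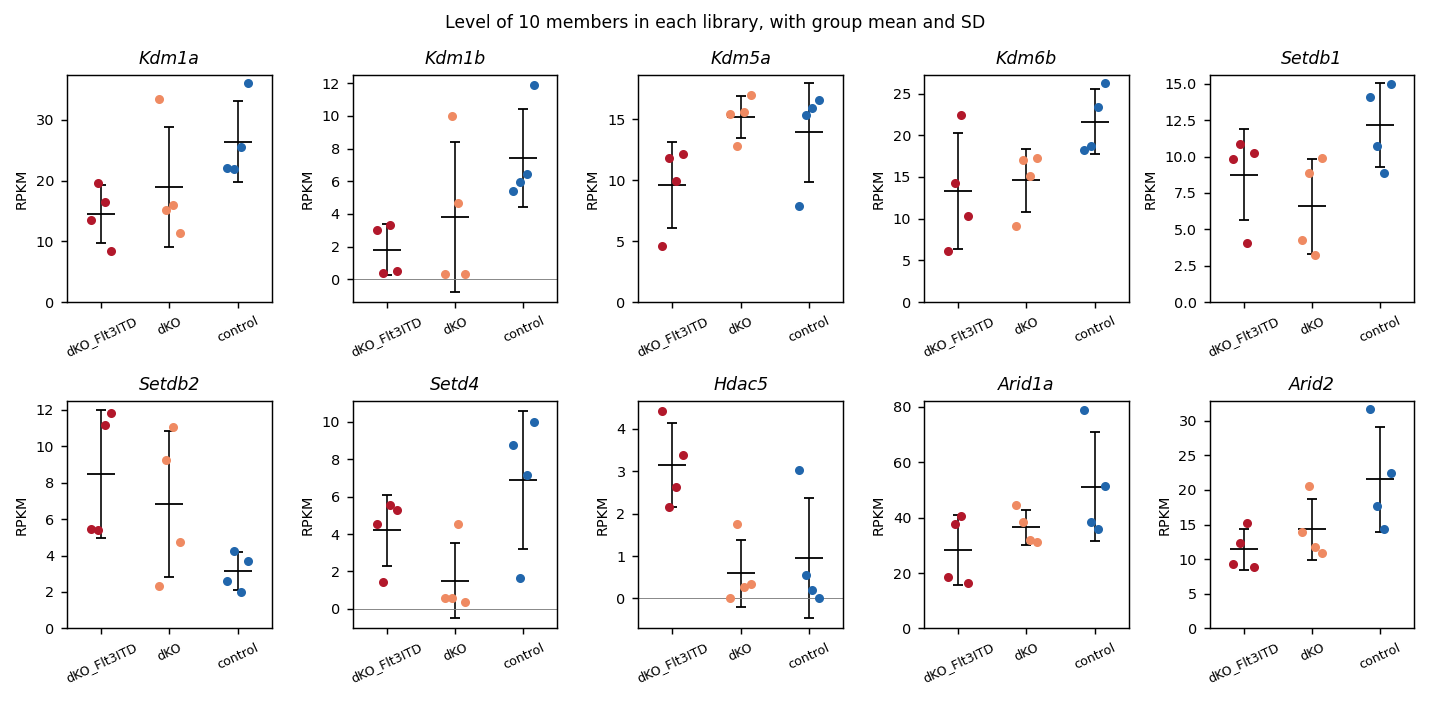
RPKM of 10 members in each library (points), with dKO_Flt3ITD, dKO and control from left to right and the group mean and SD (n = 4) as bars. In Kdm1a and Kdm1b the dKO_Flt3ITD points lie below all control points, in Setdb2 above them, in Hdac5 above and in Kdm5a below all dKO points, and in Kdm6b the dKO points lie below all control points.

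Ratios of related genes within a library do not depend on how the library was scaled, apart from the 1 RPKM added to each value. Of 11 pairs, 3 had mutant libraries apart from all control libraries. These ratios are given as a description with no test. How often the ratios of other gene pairs lie apart was not counted, so the 3 cannot be set against a background share. The log2 ratio of Setdb1 to Setdb2 was 0.75, 0.89, -1.26 and -0.19 in dKO_Flt3ITD 1 to 4, 0.67, -0.05, -1.50 and 0.93 in dKO 1 to 4, and 2.06, 1.15, 1.71 and 1.77 in control 1 to 4. Both mutant groups lay below all controls. Setdb1 thus exceeded Setdb2 in 4 of 4 control libraries, in 2 of 4 dKO_Flt3ITD and in 2 of 4 dKO libraries.

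The log2 ratio of Arid1a to Arid1b was -0.27, 0.88, 1.23 and -0.00055 in dKO_Flt3ITD, 1.12, 1.46, 1.14 and 1.28 in dKO and 1.82, 1.35, 1.44 and 1.75 in control. All dKO_Flt3ITD libraries were below all control libraries, and dKO overlapped with both. For Kdm1a to Kdm1b the log2 ratio ranged over 1.86 to 3.89 in dKO_Flt3ITD, 0.55 to 4.71 in dKO and 1.52 to 1.85 in control. All dKO_Flt3ITD libraries were just above all control libraries, dKO lay on both sides, and Kdm1a was the more abundant in 12 of 12 libraries. The other 8 pairs, Smarca4 with Smarca2, Smarcc1 with Smarcc2, Smarcd1 with Smarcd2, Hdac1 with Hdac2, Chd4 with Chd3, Kdm6a with Kdm6b, Kdm5a with Kdm5b and Setd1a with Setd1b, overlapped in all 3 comparisons.

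**Figure D4:**
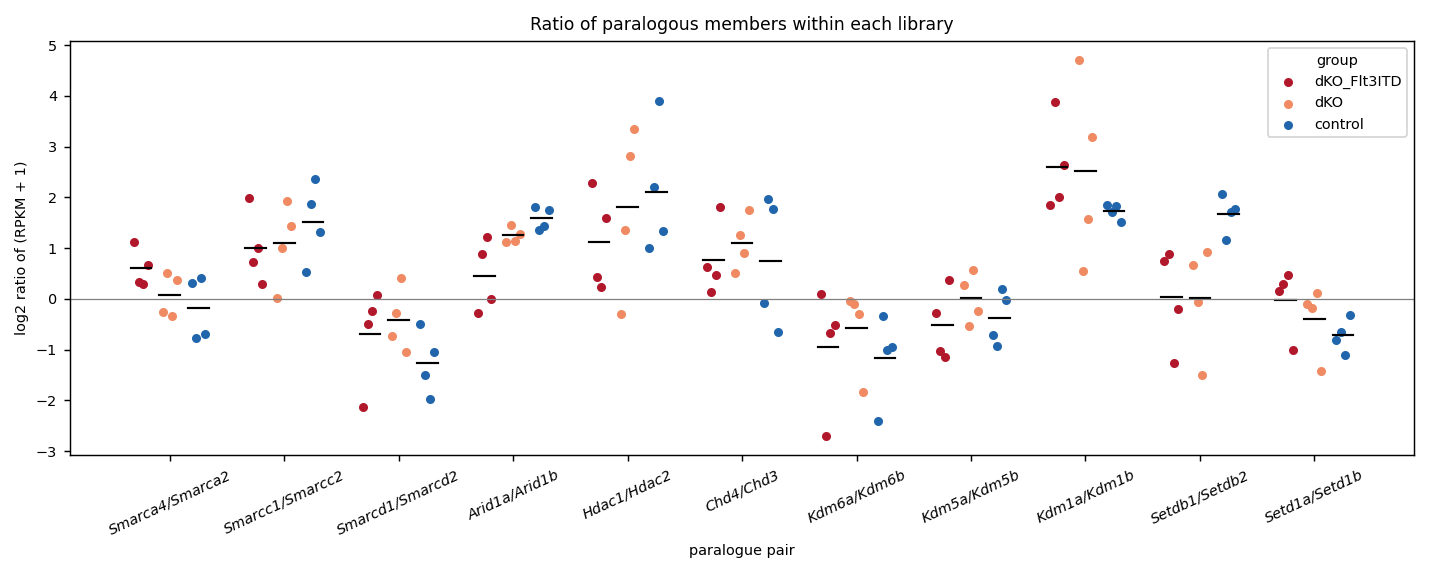
Log2 ratio of (RPKM + 1) of 11 pairs of related members in each library (points), with dKO_Flt3ITD, dKO and control from left to right within each pair and the group mean as a bar. The control points of Setdb1/Setdb2, at 1.15 to 2.06, lie above all mutant points, and those of Arid1a/Arid1b above all dKO_Flt3ITD points.

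The signs over all members leaned downward against control, and the lean moved with single libraries. In dKO against control 41 of 63 differences were negative with a median of -0.14, in dKO_Flt3ITD against dKO 34 with a median of -0.01, and in dKO_Flt3ITD against control 38 with a median of -0.11. These are 65.1%, 54.0% and 60.3% of the members, against 49.3%, 49.7% and 49.9% of all tested genes. Control 1 held the highest value of 14 of 63 members (22.2%), against 14.9% of all tested genes. The library dKO_Flt3ITD 1 held the lowest value of 16 members (25.4%), against 10.5% of all tested genes, counting a lowest value only where no other library shared it. With 1 library left out at a time, the member median stayed negative against control. It ran from -0.19 to -0.07 in dKO and from -0.20 to -0.005 in dKO_Flt3ITD. Without replicate 1 of all 3 groups the member medians were 0.02, 0.09 and 0.11, the opposite sign in each comparison. A lower level in these bulk libraries cannot be told apart from fewer cells of a type that expresses the gene.

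Transcript length differed between the members and other genes. The 63 tested members had a median length 1.83 times that of all tested genes, and 51 of them were longer than that median. Across the tested genes, control 1 had higher values the longer the transcript, with a Spearman rho of 0.26 between a gene's deviation from its mean and its length. In dKO_Flt3ITD 1 the rho was -0.38, and in the other 10 libraries it lay between -0.09 and 0.18. These correlations are across genes, which are not independent replicates. The summed RPKM of all genes was also largest in dKO_Flt3ITD 1, and the members' share of that sum was 0.0830% there and 0.215% in control 1, the lowest and the highest of the 12. The part of transcript length in the members' differences was not tested.

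**Figure D5:**
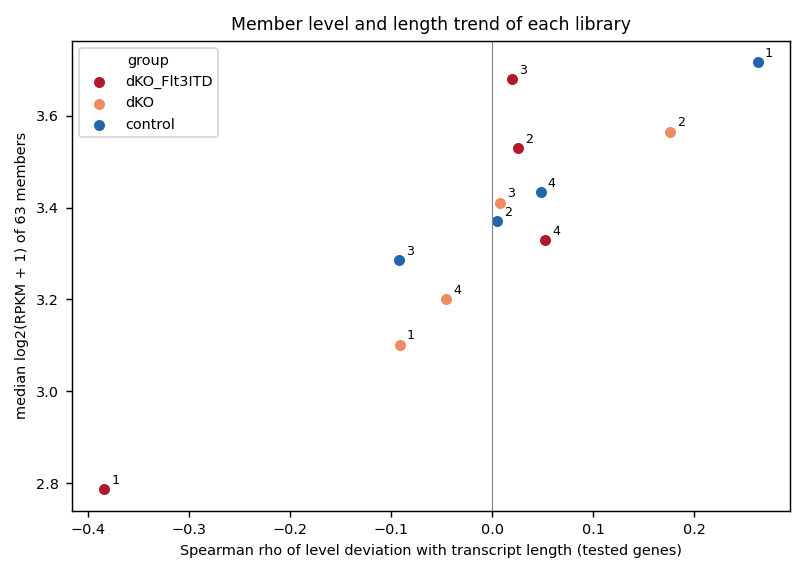
Median log2(RPKM + 1) of the 63 tested members in each library (vertical axis) against the Spearman rho, over tested genes, of deviation with transcript length (horizontal axis), with the replicate number beside each point. The library dKO_Flt3ITD 1 sits at the lower left, at a rho of -0.38 and a median of 2.79, and control 1 at the upper right, at 0.26 and 3.72.

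The members varied less within groups than other genes. Their median within-group SD was 0.58 log2 units, against 0.72 over all tested genes and 0.80 over 3003 tested genes with a mean between the members' quartiles. A member had a median of 1068 reads per library, against 589 for those genes of like level, so the members were also the more deeply read. Besides Arid1b, Setd8 and Smarcc1 were the steadiest, and besides Kdm8 the most variable were Hdac8 and Kdm3a, at 1.37 and 1.30.

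Genes that work with these families but fall outside their symbols were read from lists of named partners. No gene of these lists was called in any comparison, by limma over all 10690 genes, and the median of each list stood between -0.22 and 0.29. Of 15 tested SWI/SNF partners, Phf10, a PBAF subunit, had the smallest p in dKO_Flt3ITD against control, at 13.8 ± 5.67 RPKM in dKO_Flt3ITD and 4.83 ± 4.99 in control (SD, n = 4 each) and a log2 difference of 1.60 (SE 0.56, adjusted p = 0.201). Bcl11a, a zinc-finger protein bound to SWI/SNF, stood at 38.8 ± 16.9 RPKM in dKO_Flt3ITD and 77.3 ± 14.4 in dKO, a log2 difference of -1.07 (SE 0.35, adjusted p = 0.425). Of 23 co-repressor partners, Sap30, a subunit of the SIN3 complex with Hdac1 and Hdac2, had 7.82, 9.93, 25.5 and 22.3 RPKM in dKO_Flt3ITD, 1.62, 2.497, 1.47 and 5.26 in dKO and 11.2, 4.92, 7.05 and 9.69 in control. All dKO_Flt3ITD libraries were above all dKO libraries, with a log2 difference of 2.18 (SE 0.51, adjusted p = 0.261). Among 19 other histone methyltransferases, Nsd1, which methylates H3K36, stood at 16.3 ± 5.89 RPKM in dKO and 33.2 ± 6.25 in control (SD, n = 4 each), a log2 difference of -1.03 (SE 0.37, adjusted p = 0.307). Among 10 acetyltransferases Hat1 stood at 108 ± 22.4 RPKM in dKO_Flt3ITD and 163 ± 52.8 in dKO, and among 12 ISWI, INO80 and SRCAP partners Ep400 stood at 8.23 ± 1.92 in dKO_Flt3ITD and 16.6 ± 9.73 in control. The 7 sirtuins, a separate class of deacetylases, had differences in both directions in all 3 comparisons.

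Cell cycle genes and markers of other cell types were read in the same libraries. Of 25 cell cycle genes, 23 had negative differences in dKO_Flt3ITD against control, where 49.9% of all tested genes did. Their median was -0.71 with 0 calls, and their summed level was 943 to 1428 RPKM in dKO_Flt3ITD, 1522 to 2112 in dKO and 1366 to 2065 in control. Of 8 tested macrophage markers, Emr1 and Spic were called higher in dKO_Flt3ITD and Mrc1 in dKO, each against control. The 9 macrophage markers summed to 53.3 to 154 RPKM in dKO_Flt3ITD, 49.4 to 152 in dKO and 19.2 to 66.8 in control. The 6 granulocyte and monocyte markers in the table, with Ctsg called higher in dKO_Flt3ITD against control, summed to 38.2 to 1340 RPKM in dKO_Flt3ITD, 25.2 to 135 in dKO and 67.8 to 248 in control, and 7 dendritic cell markers to 956 to 3296, 635 to 901 and 358 to 967 RPKM in dKO_Flt3ITD, dKO and control. Siglech, a marker of plasmacytoid dendritic cells, was below 1 RPKM in all 12 libraries. The 6 later thymocyte markers in the table summed to 16.4 to 90.1 RPKM in dKO_Flt3ITD, 102 to 162 in dKO and 32.4 to 55.97 in control, so that all dKO libraries lay above all others. The 4 of them tested had a median log2 difference of 1.52 in dKO against control and 0 calls. One gene each was tested of the B-lineage, natural killer and thymic stroma markers, with 0 calls, and the erythroid markers were too low to test. Among 11 progenitor markers Tcf7, a factor of T-lineage entry, was called lower in both mutant groups, by limma's adjusted p of 0.00283 in dKO_Flt3ITD and 0.00232 in dKO, each against control. The part of these genes and cell types in the members' levels was not tested.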

How the data were processed

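Each library was full-length cDNA amplified by the SMARTer method from 100 sorted cells, per the labels' protocols. TopHat2 2.0.10, SAMtools 0.1.19, HTSeq 0.5.4p5 and mm10 are named in the submitters' processing notes. The authors deposited 1 table of RPKM values for 13016 genes; the read total behind them, like the choice of genes, is not given in the sources used here. Sample descriptions tied columns to libraries, and titles gave the group and replicate number.

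Steps between RPKM values gave whole reads, within 0.001 of a whole number for 100% of genes. Reads amplified from few cells are not independent molecules, so depth covers counting error only. Replicate libraries differed by a chi-square of 115 to 625 per degree of freedom, so none was treated as a copy.

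The 10690 genes that reached 1 RPKM in 4 or more libraries were tested. The test was limma-trend (limma 3.58.1, R 4.3.3) on log2(RPKM + 1), over the 12 libraries jointly and with 9 residual degrees of freedom, with Benjamini-Hochberg adjustment over all tested genes at 0.05. Log2 fold changes on the deposited RPKM plus 1 understate changes of low genes. Of the calls in simulated data 7.87% were false. Members and lists were chosen with earlier results of these data known. Members named are the 2 per family and comparison with the smallest p, the 3 per family with the highest mean, those with non-overlapping groups and both genes of 11 related pairs; others are named where a count or range needs them, after their values were seen. From each list of partners the gene with the smallest p could be named. Positions and promoters came from RefSeq on GRCm38.p6, where 50 of 68 members had a promoter entry.

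Alternatives were pseudocounts of 0.1 and 0.5, no filter and a filter at 5 RPKM, libraries rescaled to the same sum, TMM factors, no trend, array weights, the 8 libraries compared, a replicate block, voom on recovered reads, leaving out each library, and leaving out replicate 1 of all groups. Same-numbered replicates did not deviate together (correlations from -0.147 to 0.126), so the numbers were not taken to pair libraries. Python 3.11.15, numpy 2.4.6, pandas 2.3.3, scipy 1.17.1 and matplotlib 3.10.9 were used.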

Additional observations from a re-analysis of the deposited data

Results flagged for a closer look

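Single libraries stood apart from the other 3 of their group, by a gap above Dixon's 95% limit for 4 values, in 15 of 132 group values of the members named (11.4%), against 9.39% of those of all tested genes; for normally distributed values chance gives about 1 in 20. Among the Kdm genes, Kdm1b was high in control 4 at 11.9 RPKM and Kdm5a low in control 1 at 7.89. Among the Setd genes, Setd3 was low in dKO 2 at 8.34 RPKM and in control 3 at 8.75. Setd4 was high in dKO 3 at 4.52 RPKM, where the other dKO libraries stood below 1. Setd5 was high in dKO_Flt3ITD 3 at 13.8 RPKM and in dKO 1 at 12.3, and Setdb1 low in dKO_Flt3ITD 3 at 4.08.

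Of the Smarc genes, Smarca4 at 24.7 RPKM and Smarca5 at 65.8 were both high in control 1. Smarca2 was low at 8.97 RPKM and Smarce1 high at 121 in control 3, and Smarcd2 was low in dKO_Flt3ITD 4 at 7.87. Of the remaining families, Hdac2 was high in dKO_Flt3ITD 3 at 60.4 RPKM and Arid3b in dKO_Flt3ITD 4 at 6.46. No Chd gene stood apart in this way.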

How the results depend on the processing

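No member was called in any of the 75 combinations of setting and comparison. The smallest adjusted p of a member was 0.120 (Hdac5, dKO_Flt3ITD against control, without control replicate 1). Hdac5 met the limit for testing only through dKO_Flt3ITD, where it is high. The sign held in every setting for 34 of 63 members in dKO against control, 31 in dKO_Flt3ITD against dKO and 30 in dKO_Flt3ITD against control. The member median ran from -0.28 to 0.02, from -0.13 to 0.16 and from -0.35 to 0.11 in the same comparisons. Of 3159 values of named members under the alternatives, 53 moved by more than the standard error, 17 of them by voom, 14 without replicate 1 of all groups, 12 with a pseudocount of 0.1 and the rest without a single library. Both voom and the lower pseudocount enlarged the differences of the low genes Hdac5, Kdm8, Setd4 and Kdm1b by more than that in 2 comparisons each. Of the family medians 336 moved by less than the spread between replicates and 6 by more.

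Counts over all genes moved more. For dKO against control, 109 genes became 64 with no filter, 210 with array weights, 5 by voom, 45 without replicate 1 of all groups and 58 to 150 leaving out 1 library. For dKO_Flt3ITD against control, 160 became 91, 235, 27, 105 and 94 to 187 under the same settings. For dKO_Flt3ITD against dKO, 0 became 1 with no filter, at 5 RPKM, with 8 libraries and without replicate 1 of all groups, 2 with array weights and 0 to 6 leaving out 1 library. Libraries rescaled to the same sum gave 83 up and 79 down for dKO_Flt3ITD against control, where the main values were 106 and 54; that scaling moved the median of all genes to -0.11, -0.10 and -0.22. With the replicate number as a block 85, 0 and 116 genes and 0 members were called, and the numbers were not shown to pair the libraries. The cause of these shifts was not tested.

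At 4 libraries a group, differences of about 1 log2 unit were seldom detectable, and genes under 1 RPKM were not tested.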
